A study of Rattus norvegicus with 6 samples.

Results

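The Polycomb group genes encode chromatin regulators, and 31 of them, chosen by symbol from a list, were followed among the 32623 genes of 6 rat libraries. The list covered Polycomb repressive complex 1 (PRC1), Polycomb repressive complex 2 (PRC2) and the Polycomb repressive deubiquitinase PR-DUB, and each symbol matched a single gene. RNA was sequenced from primary liver sinusoidal endothelial cells of Han Wistar rats, the cells that line the capillaries of the liver. They were cultured in a perfused device, beside liver macrophages, stellate cells and hepatocytes, under a shear stress of 1.15 dyn/cm2 that lasted 48 h. The pressure was 1 mmHg in the 3 physiological libraries and 12 mmHg in the 3 pathological libraries, and all 6 libraries shared the co-culture and the shear. No genotype, treatment or age separates the groups in the labels. No source says whether libraries share an animal or a culture, and the p-values measure the spread among these 6 samples, possibly technical.

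Polycomb complexes keep developmental genes silent by marking histones. PRC1 attaches ubiquitin to histone H2A through a RING subunit paired with a Pcgf subunit. Its canonical form binds methylated histone H3 through a chromobox (Cbx) subunit, and its variant form carries Rybp or Yaf2 in place of Cbx. PRC2 methylates lysine 27 of histone H3 through Ezh1 or Ezh2, held with Eed and Suz12, and PR-DUB removes the ubiquitin from H2A. Cells assemble different complexes by which paralog they express, and Ezh2 is known for its link to dividing cells while Ezh1 prevails in resting ones. Cbx7 is a chromobox subunit known for repressing the cell cycle inhibitor locus Cdkn2a.

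The promoters of Cbx7, Cbx6 and Cbx8 are shown because the chromobox genes lie in neighbouring groups and differed in which libraries carried them. In the RefSeq annotation of GRCr8, 1 protein-coding gene separates Cbx6 from Cbx7, and no protein-coding gene separates Cbx2 from Cbx8. The sequences are the 250 bases before the gene start in the RefSeq table for GRCr8, which need not be the build used for counting, and capitals mark matches to GGGCGG on either strand, the core of a GC box.
Cbx7, chr7:113358347-113358596, minus strand: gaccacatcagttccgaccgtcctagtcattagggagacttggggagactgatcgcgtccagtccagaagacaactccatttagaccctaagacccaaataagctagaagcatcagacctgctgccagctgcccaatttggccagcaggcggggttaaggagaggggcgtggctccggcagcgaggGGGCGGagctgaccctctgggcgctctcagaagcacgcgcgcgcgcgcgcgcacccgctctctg
Cbx6, chr7:113263414-113263663, minus strand: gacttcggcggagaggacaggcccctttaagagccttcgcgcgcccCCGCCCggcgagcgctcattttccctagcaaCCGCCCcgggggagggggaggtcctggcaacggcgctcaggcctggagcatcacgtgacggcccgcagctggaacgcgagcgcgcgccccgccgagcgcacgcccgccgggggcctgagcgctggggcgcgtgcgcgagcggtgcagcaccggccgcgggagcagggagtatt
Cbx8, chr10:104795501-104795750, minus strand: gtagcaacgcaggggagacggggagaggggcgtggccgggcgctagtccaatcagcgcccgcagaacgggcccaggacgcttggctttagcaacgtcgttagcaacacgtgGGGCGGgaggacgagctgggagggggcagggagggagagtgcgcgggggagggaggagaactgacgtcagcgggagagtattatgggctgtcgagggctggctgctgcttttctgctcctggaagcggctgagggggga
These 3 windows held 19, 36 and 20 CpG dinucleotides for Cbx7, Cbx6 and Cbx8, against a median of 5 over all 33469 RefSeq promoters of the same length. The table had promoters of 27 of the 31 genes, without Cbx2, Rybp, Ezh1 and Phc3. Their median GC content was 66.8%, against 51.2% over all promoters, and 22 of 27 (81.5%) had an observed to expected CpG ratio over 0.6, against 33.0% of all. The sets were not built alike. Each member had a single window, the first listed for its symbol. All promoters were kept without a filter on gene type or on repeated symbols. GGGCGG on either strand was present in 18 of 27 (66.7%) against 30.5% of all promoters. CCAAT on either strand was present in 10 of 27 (37.0%) against 34.0%, and TTTCGCGC on either strand, an E2F-type motif, in 0 of 27 against 0.248%. The windows of Phc2, Pcgf2 and Asxl2 were the poorest, with 1, 2 and 4 CpG dinucleotides, and the next member had 10.

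Library totals ran from 8925149 to 24025406 counts, and the libraries stood apart in ways the pressure did not follow. Levels of single genes are given as CPM over the TMM-scaled total of their library and sums of marker lists as CPM over the plain total, always for replicates 1, 2 and 3 in that order. A hepatocyte marker list of 31 genes had sums of 317, 56400 and 39400 CPM in the physiological libraries, whereas the pathological libraries had 499, 829 and 77800 CPM. The stellate list, of which 19 of 20 genes matched, summed to 718, 1670 and 1600 CPM and to 537, 441 and 2030 CPM. Reln made up much of the sums of physiological replicate 1 and pathological replicates 1 and 2, and hid uneven genes. It stood at 518, 78.9 and 25.8 CPM and at 426, 435 and 0.948 CPM. Lrat ran the other way, at 1.12, 605 and 660 CPM and at 2.25, 8.24 and 923 CPM. So did Des, at 1.32, 86.8 and 113 CPM and at 0.858, 4.26 and 210 CPM. Lox was low but highest in the same libraries as Reln. These genes were picked after their values were seen. The macrophage list, with 18 of 19 matched, was lowest in pathological replicate 2 with a sum of 82.0 CPM, while the other 5 libraries had 1060 to 1740 CPM. Those sums also hid uneven genes. Clec4f was lowest in physiological replicate 1, at 7.897, 276.4 and 179.9 CPM and at 10.05, 21.36 and 259.4 CPM. Mrc1 was highest there and lowest in pathological replicate 2, at 416.1, 182.4 and 178.3 CPM and at 401.1, 37.75 and 239.1 CPM. Clec4f and Mrc1 were likewise picked after their values were seen. The pan-endothelial list, with 17 of 19 matched, summed to 1860, 3240 and 1840 CPM and to 1000, 857 and 2620 CPM. Its junction gene Cdh5 (VE-cadherin) stood between 184 and 320 CPM in all 6 libraries, but Cldn5 was at 0 in each, and the VEGF receptor gene Kdr had 4.18 and 13.6 CPM in pathological replicates 1 and 2 against 43.8 to 502 CPM in the others. The sinusoidal hyaluronan receptor Lyve1 was uneven, at 248, 1695 and 1618 CPM and at 41.3, 75.9 and 2015 CPM. The number of genes with at least 1 rounded count was 17189, 12833 and 10649 in the physiological and 16769, 13729 and 10234 in the pathological libraries. Thinned by calculation to the smallest total, the numbers were 16351, 12522 and 10649, and 16133, 13310 and 9996, in the same order of libraries. In bulk samples, fewer cells of a type and less RNA per cell cannot be told apart.

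Between the pressures, no Polycomb gene passed the test. With edgeR's quasi-likelihood test and Benjamini-Hochberg adjustment over 12742 genes, 0 of 30 tested members had an adjusted p under 0.05, beside 0% of all genes. At an unadjusted p under 0.05 there were also 0 of 30 members, beside 0.259% of all genes, and the smallest unadjusted p among the members was 0.165. DESeq2 called 0 of the members and 1 gene in all (0.00785%), and limma-voom called 0 genes, with Cbx2 the 1 of 30 members (and 1.25% of all genes) at an unadjusted p under 0.05. Of the 30 members, 21 had positive and 9 negative fold changes at pathological pressure, with a median log2 fold change of 0.32, beside 6693 positive of 12742 and a median of 0.05 over all genes tested. Phf19, an accessory subunit of PRC2, was too low to be tested, with at most 26 counts in a library. The median standard error of a member's log2 fold change was 1.53, so the 95% intervals in the plot of fold changes were wide.

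**Figure D1:**
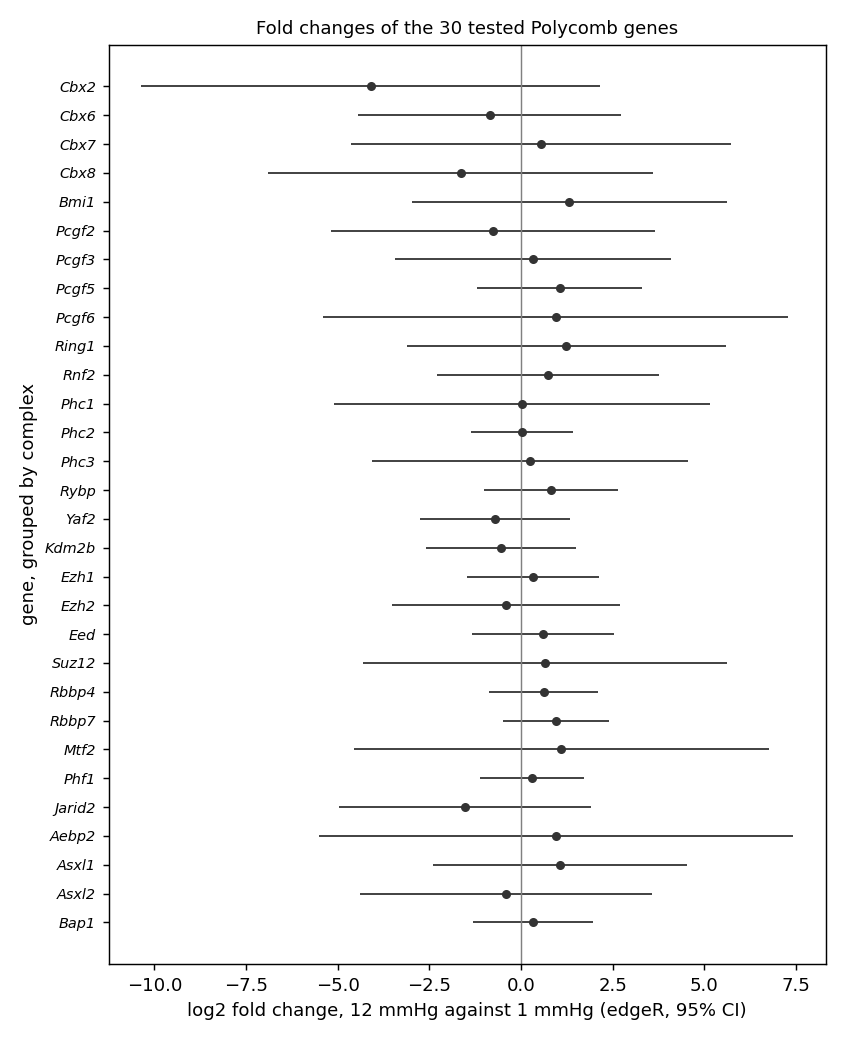
Log2 fold change (x axis, 12 mmHg against 1 mmHg, edgeR) of each tested Polycomb gene (y axis, grouped by complex), with points for the estimates and bars for the 95% confidence intervals. Every bar crosses 0, and Cbx2 at -4.10 lies farthest from it.

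Many members were missing from single libraries. Of the 31 genes, 0, 3 and 9 had under 3 counts in physiological replicates 1, 2 and 3, and 1, 1 and 12 in pathological replicates 1, 2 and 3. Among the 27 members with a mean over 10 CPM, the shares under 3 counts were 0%, 3.70% and 25.9% in the physiological and 0%, 0% and 29.6% in the pathological libraries. Over all 8512 genes with such a mean they were 1.47%, 2.27% and 14.4%, and 1.12%, 3.48% and 16.6%. Physiological replicate 3 and pathological replicate 3, the smallest libraries with the fewest genes, held most of the gaps in both sets, which were not matched on level. In those libraries 3 counts correspond to 0.428 and 0.284 CPM, a floor that covers counting error only.

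**Figure D2:**
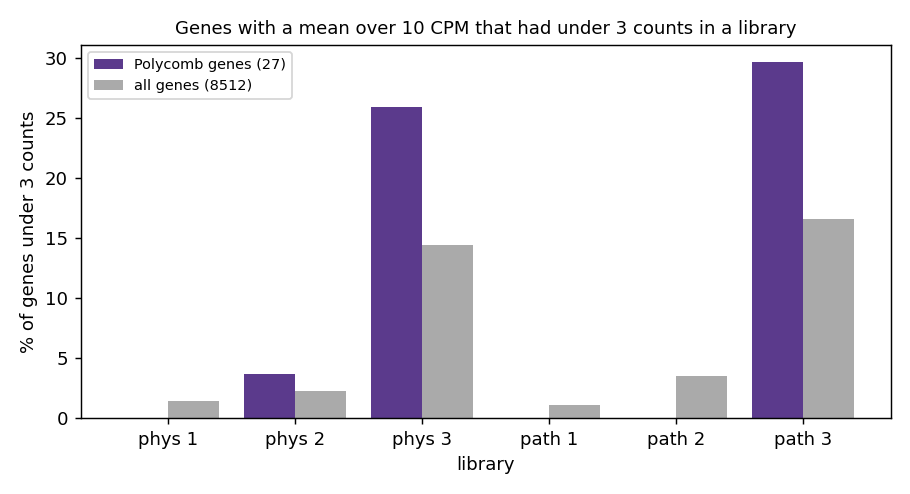
Percent of genes (y axis) with a mean over 10 CPM that had under 3 counts in each library (x axis), for the 27 Polycomb genes of that level (purple bars) and all 8512 such genes (grey bars). Replicate 3 of each pressure stands highest for both sets, at 25.9% and 29.6% of the Polycomb genes.

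The missing genes included a subunit that every PRC2 complex needs. Suz12, the scaffold of PRC2, had 1576, 217 and 0 counts at physiological and 1184, 1262 and 1 at pathological pressure, and was chosen for printing after its values were seen, as were Aebp2, Mtf2, Phc2 and Phf1. Aebp2, which binds PRC2 in the form that carries Jarid2, had 893, 0 and 0 counts and 775, 617 and 0. Mtf2, a Polycomb-like protein that brings PRC2 to DNA, had 667, 48 and 0 counts and 515, 732 and 0. All these genes were present in physiological replicate 1 and in pathological replicates 1 and 2, and lower or at 0 in the other 3 libraries. Of those 3, physiological replicate 2 still had 217 counts of Suz12. By contrast Phc2, a polyhomeotic subunit through which PRC1 polymerizes, stood at 128, 135 and 157 CPM and at 115, 93.2 and 217 CPM. Phf1, the other well measured Polycomb-like protein, stood at 64.0, 81.6 and 77.4 CPM and at 70.4, 83.2 and 120 CPM. In log2(CPM + 0.5) the span from the lowest to the highest library was 0.90 for Phf1 and 1.22 for Phc2, against 6.91 for Suz12 and 7.14 for Cbx7, the widest of the members. The median span was 4.74 for the 30 tested members and 3.96 for all tested genes.

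**Figure D3:**
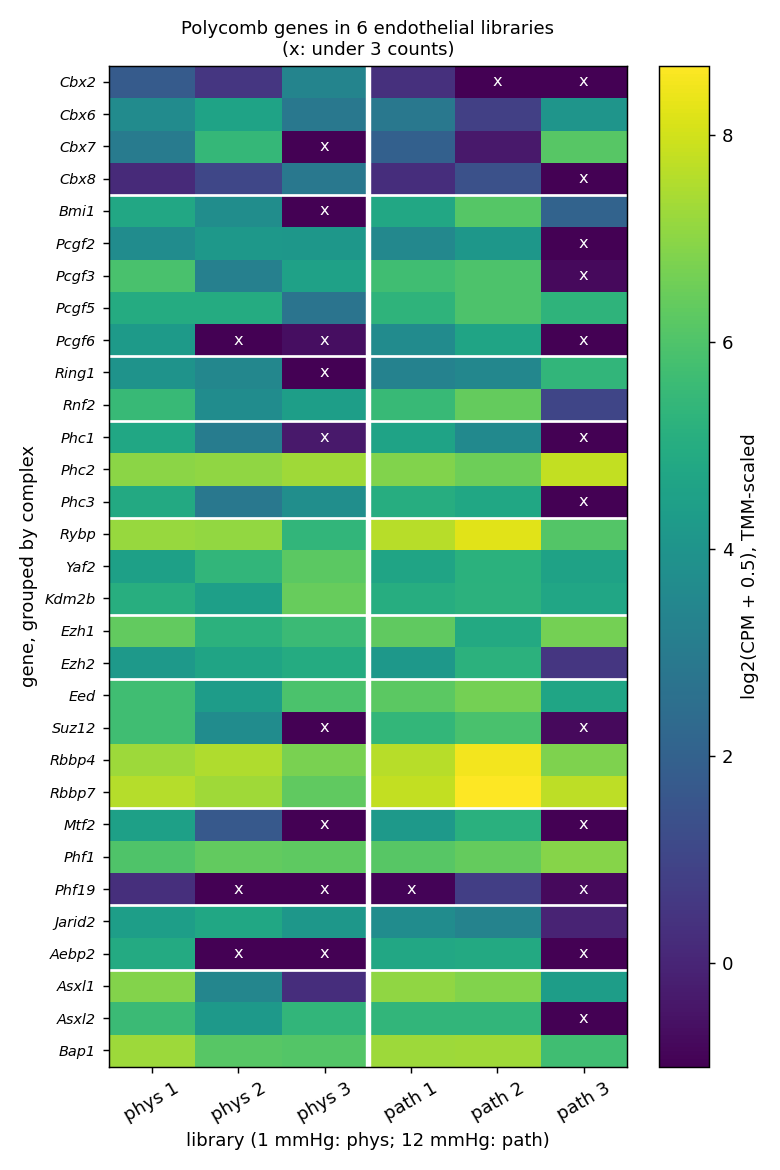
Level of each Polycomb gene (rows, grouped by complex) in the 6 libraries (columns), as the colour of log2(CPM + 0.5), with x where a library had under 3 counts. Colours compare libraries within a row, since genes of different length give different counts, and most x marks lie in replicate 3 of each pressure.

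The closest pair of libraries came from different pressures. Over the 31 genes, the median absolute difference in log2(CPM + 0.5) was 0.198 between physiological replicate 1 and pathological replicate 1, where 3 genes differed by more than 1. It was 1.07 between physiological replicates 1 and 2, and 2.46 between pathological replicates 2 and 3, where 25 of 31 genes differed by more than 1. All tested genes showed the same closest pair, with a median difference of 0.290. The 3 libraries under 10000 CPM of hepatocyte genes, a level set after seeing the data, were physiological replicate 1 and pathological replicates 1 and 2. For 12 of the 30 tested members, all 3 of these libraries stood above the other 3, or 40.0% against 30.2% of all genes, and with library totals in place of TMM scaling it was 17, or 56.7% against 33.2%. Those 12 were Bmi1, Pcgf3, Pcgf6, Rnf2, Phc1, Phc3, Rybp, Suz12, Mtf2, Aebp2, Asxl1 and Bap1. The opposite order held for Phc2 alone, 3.33% against 18.3% of all genes, and for 0 members with library totals, against 15.6%. The part of hepatocyte content, gene breadth or depth in these differences was not tested.

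The chromobox genes, whose products read methylated histone H3, differed in which libraries carried them. Cbx7 (ENSRNOG00000016875) stood at 7.70, 43.2 and 0 CPM under physiological pressure and 3.43, 0.284 and 70.2 CPM under pathological pressure. It was thus high in physiological replicate 2 and pathological replicate 3, which were rich in hepatocyte transcripts, absent from physiological replicate 3, which was rich in them too, and the groups overlapped. Its means were 17.0 ± 23.0 and 24.6 ± 39.5 CPM (SD, n = 3 each), a log2 fold change of 0.54 (95% CI -4.64 to 5.72, edgeR adjusted p = 0.9999). That direction rested on single libraries, since the log2 fold change was -3.17 without pathological replicate 3 and 2.56 without physiological replicate 2. It was also negative, at -1.08, when libraries with neighbouring numbers in the labels were paired, a pairing that no label states.

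Cbx6, the neighbour of Cbx7 and another chromobox subunit of PRC1, stood at 12.2, 24.1 and 6.84 CPM and at 6.76, 1.28 and 15.8 CPM. It was highest in the same 2 libraries as Cbx7. Cbx2, a PRC1 subunit that compacts chromatin, had 88, 16 and 68 counts at physiological and 21, 0 and 0 at pathological pressure, or 2.90, 0.926 and 9.69 CPM and 0.751, 0 and 0 CPM. Its groups did not overlap, but the nearest libraries, physiological replicate 2 and pathological replicate 1, had 16 and 21 counts. That gap was within counting error. The log2 fold change of Cbx2 was -4.10 (95% CI -10.36 to 2.15, edgeR adjusted p = 0.9999). That value was -9.27 without pathological replicate 1 and -2.88 without physiological replicate 3, and Cbx2 was not tested where a CPM above 1 in at least 3 libraries was required. Cbx8, its neighbour, stood at 0.625, 1.56 and 6.84 CPM and at 0.715, 2.13 and 0 CPM, with at most 48 counts in a library. Cbx2 and Cbx8 both peaked in physiological replicate 3, where Cbx7 was at 0.

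**Figure D4:**
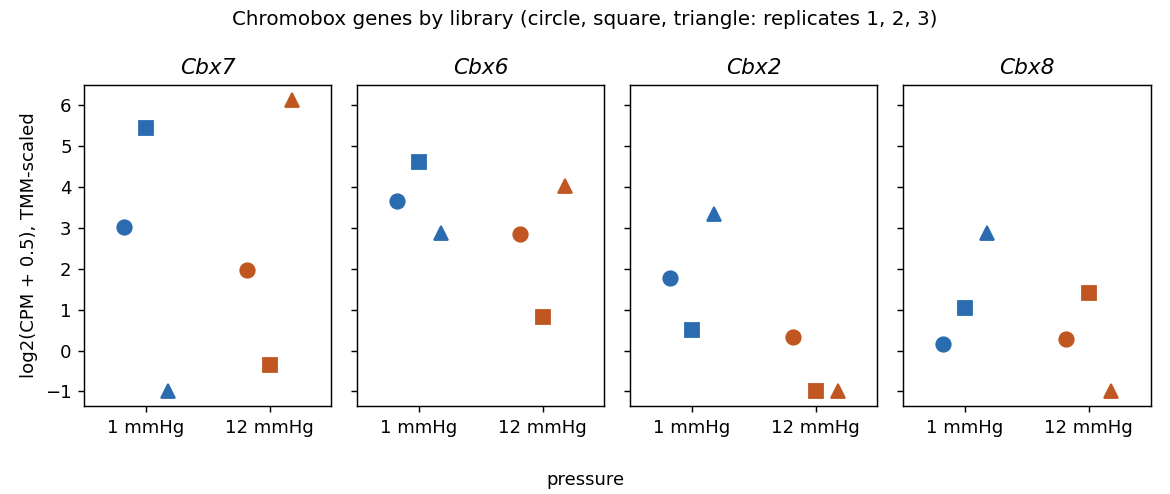
Log2(CPM + 0.5) (y axis) of 4 chromobox genes in the 3 libraries at 1 mmHg (blue) and the 3 at 12 mmHg (orange) (x axis), with circle, square and triangle for replicates 1, 2 and 3. Cbx7 and Cbx6 are highest in physiological replicate 2 and pathological replicate 3, Cbx2 and Cbx8 in physiological replicate 3.

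The make-up of the chromobox family differed from library to library. Of the counts of Cbx2, Cbx6, Cbx7 and Cbx8, Cbx7 took 32.9% (95% Wilson interval 29.6 to 36.4), 61.9% (59.1 to 64.6) and 0% of 164 counts in the physiological libraries, where the Wilson interval of that 0% reaches 2.29% and 3 counts, the limit that a count of 0 allows, would be 1.83%. In the pathological libraries it took 29.4% (24.8 to 34.6), 7.69% (3.57 to 15.8) and 81.6% (79.0 to 84.0). These shares are not corrected for gene length, so they are read between libraries and not between genes, and the intervals cover counting error only. The 2 pressures overlapped, with replicate 1 of each pressure at nearly the same share. The log2 ratios of Cbx7 to Cbx6, Cbx8 and Cbx2 were 1.84, 2.74 and 5.53 higher at pathological pressure, with exact two-sided permutation p of 0.7, 0.7 and 0.4. With 3 libraries against 3, the smallest p this test can give is 0.1.

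Pcgf subunits decide which PRC1 form a RING subunit joins. Bmi1, the Pcgf protein of canonical PRC1 that is known for sustaining stem cells, stood at 27.01, 12.8 and 0 CPM and at 27.1, 68.3 and 3.70 CPM. Its paralog Pcgf2 stood at 12.5, 17.4 and 16.7 CPM and at 10.8, 16.7 and 0 CPM. The log2 ratio of Bmi1 to Pcgf2 was 1.11, -0.44 and -7.88 in the physiological and 1.33, 2.03 and 6.30 in the pathological libraries. The pathological libraries were all above the physiological ones, by 5.63 on average (exact permutation p = 0.1, 0.55 adjusted over the 11 ratios compared), and the extreme libraries were those with 0 counts of Bmi1 or of Pcgf2. Without those, the ratios of the other 4 libraries ran from -0.44 to 2.03. The difference was 2.89 without physiological replicate 3 and 7.38 without physiological replicate 1. It was 0.57 in the 3 libraries poor in hepatocyte transcripts and 10.46 in the 3 rich in them.

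Among the Pcgf genes of variant PRC1, Pcgf5 stood at 30.2, 30.4 and 6.13 CPM and at 38.8, 61.4 and 38.2 CPM. Its groups did not overlap, with a log2 fold change of 1.05 (95% CI -1.19 to 3.29, edgeR adjusted p = 0.9999), but they did overlap with library totals in place of TMM scaling. Pcgf3 stood at 59.3, 8.85 and 22.9 CPM and at 52.0, 61.4 and 0.0948 CPM. Pcgf6, which works with germline gene repressors, stood at 18.9, 0 and 0.143 CPM and at 12.3, 24.3 and 0 CPM. In pathological replicate 3, Pcgf5 took 91.0% (Wilson interval 87.9 to 93.3) of the counts of the 5 Pcgf genes, against 13.4% to 43.8% in the other 5 libraries.

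The share of each catalytic RING subunit differed between libraries as well. Ring1 stood at 15.3, 10.6 and 0 CPM and at 9.33, 10.7 and 41.2 CPM, and Rnf2 (RING1B) at 44.7, 12.4 and 21.1 CPM and at 45.8, 83.3 and 1.52 CPM. Ring1 took 25.5%, 46.1% and 0% of the counts of the pair in the physiological libraries and 16.9%, 11.3% and 96.5% in the pathological ones. Replicate 3 of each pressure lay at opposite ends, and the difference between pressures had an exact permutation p of 0.6. Rybp, which stimulates variant PRC1, stood at 145, 138 and 40.3 CPM and at 198, 305 and 66.6 CPM, with a log2 fold change of 0.82 (95% CI -1.01 to 2.64). Its paralog Yaf2 stood at 21.9, 40.4 and 75.1 CPM and at 24.6, 35.6 and 23.6 CPM, with a log2 fold change of -0.71 (95% CI -2.75 to 1.32). Their log2 ratio was 1.33 higher at pathological pressure (exact permutation p = 0.3), with overlapping groups. Kdm2b, which brings variant PRC1 to CpG islands, stood between 21.5 and 85.4 CPM in all 6 libraries.

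The balance of the PRC2 methyltransferases also differed between libraries. Ezh1 stood at 82.0, 36.4 and 48.2 CPM and at 78.7, 28.8 and 101 CPM, and Ezh2 at 18.2, 24.5 and 30.2 CPM and at 17.5, 36.5 and 0.948 CPM. Ezh1 took 81.8% (Wilson interval 80.4 to 83.1), 59.8% (56.8 to 62.7) and 61.5% (57.3 to 65.4) of the counts of the pair in the physiological libraries. In the pathological libraries it took 81.8% (80.3 to 83.2), 44.1% (41.5 to 46.7) and 99.1% (98.3 to 99.5). The log2 ratio was 1.14 ± 0.89 and 2.83 ± 3.55 (SD, n = 3 each), a difference of 1.69 (exact permutation p = 0.7), and -0.23 without pathological replicate 3, where Ezh2 had 10 counts. The log2 fold changes were 0.32 for Ezh1, with a 95% CI from -1.47 to 2.12, and -0.41 for Ezh2, from -3.51 to 2.70.

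Among the histone-binding and core subunits, Rbbp7 stood at 194, 157 and 79.1 CPM and at 223, 407 and 207 CPM. It had the smallest p of the members, with a log2 fold change of 0.96 (95% CI -0.49 to 2.41, edgeR adjusted p = 0.9999), and its groups did not overlap, though they did with library totals. Its partner paralog Rbbp4 stood between 105 and 362 CPM, and the log2 ratio of Rbbp4 to Rbbp7, 0.08 ± 0.40 and -0.42 ± 0.42, spanned 1.31 over the 6 libraries, the narrowest of the 11 ratios. Rbbp4 and Rbbp7 were the members whose counts were not all whole, so reads were divided between them and other genes. Eed, the subunit that binds methylated H3, stood between 20.0 and 99.0 CPM. Jarid2, which guides PRC2 to its targets, stood at 20.9, 26.8 and 16.7 CPM and at 12.4, 9.47 and 0.474 CPM. Its groups did not overlap, with a log2 fold change of -1.52 (95% CI -4.96 to 1.91, edgeR adjusted p = 0.9999), and they overlapped with library totals. The ratio of summed Mtf2, Phf1 and Phf19 to summed Jarid2 and Aebp2, which mark alternative PRC2 forms, was 1.99 higher on the log2 scale (exact permutation p = 0.7).

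Of the 30 tested members, Rbbp7 and Pcgf5 lay wholly higher and Cbx2 and Jarid2 wholly lower at pathological pressure, beside 1.55% of all genes higher and 3.05% lower. With library totals only Cbx2 remained of these 4, beside 0.981% of all genes higher and 3.29% lower. Its nearest libraries had 16 and 21 counts, a gap within counting error. In PR-DUB, Asxl1, the cofactor that activates the deubiquitinase Bap1, had 3545, 177 and 5 counts and 3742, 2392 and 213, and its paralog Asxl2 had 1468, 309 and 286 counts and 1134, 855 and 0. Their log2 ratio was 1.27, -0.80 and -5.70 at physiological and 1.72, 1.48 and 8.74 at pathological pressure, a difference of 5.73 with groups that did not overlap (exact permutation p = 0.1, 0.55 adjusted over 11 ratios). It was 3.35 without pathological replicate 3 and 7.23 without physiological replicate 1. The difference was 0.33 in the 3 libraries poor in hepatocyte transcripts and 11.99 in the 3 rich in them. Bap1 itself stood between 51.8 and 157 CPM.

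**Figure D5:**
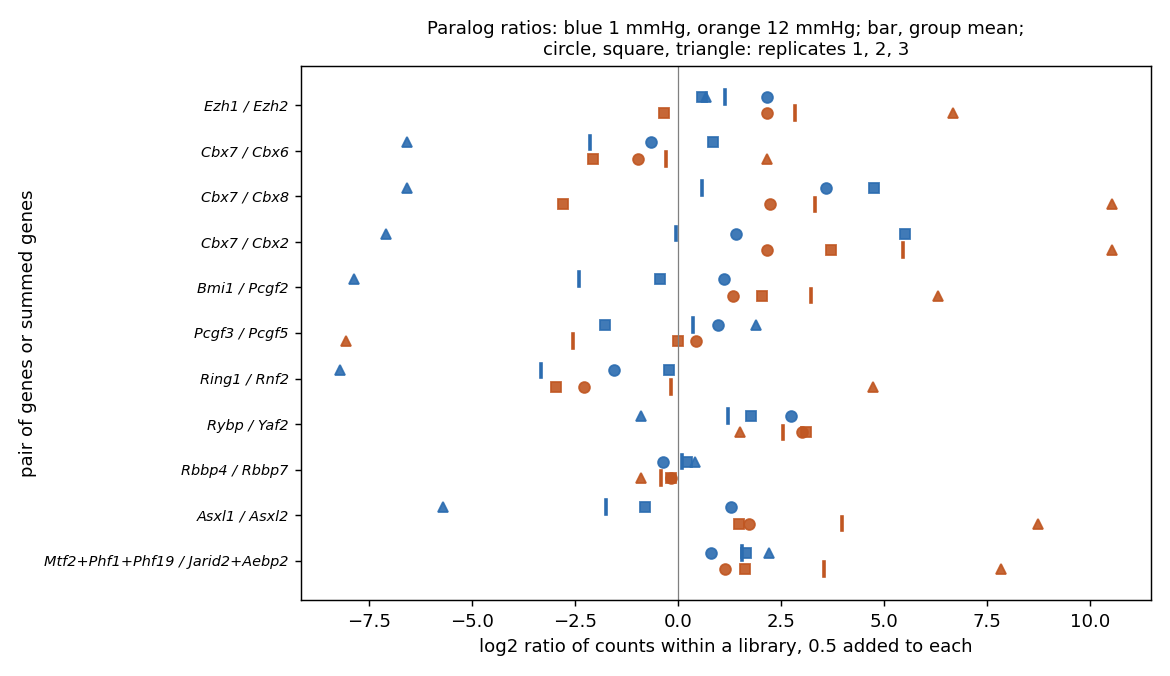
Log2 ratio of counts within each library (x axis, 0.5 count added to each gene or sum) for 11 pairs (y axis), with blue for 1 mmHg, orange for 12 mmHg, symbols for replicates 1 to 3 and bars for group means. For each of the 11 pairs the highest or the lowest library is a replicate 3, and Bmi1 to Pcgf2 and Asxl1 to Asxl2 are the 2 pairs whose pressures do not overlap.

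Other genes of the pathway did not pass either. Of 34 further Polycomb genes, 32 matched and 29 were tested, with 23 positive and 6 negative fold changes, a median of 0.31, 0 past the threshold and 0 at an unadjusted p under 0.05. Csnk2a2, a kinase subunit found with variant PRC1, stood at 155, 88.7 and 25.5 CPM and at 197, 275 and 52.6 CPM, with a log2 fold change of 0.96. Skp1, a ubiquitin ligase adaptor that joins Kdm2b, stood at 337, 485 and 538 CPM and at 439, 1074 and 474 CPM, with a log2 fold change of 0.55. Of the H3K27 demethylases and Trithorax genes, which oppose Polycomb, 7 of 14 were positive, with a median of 0.01. The H3K27 demethylase Kdm6b stood at 64.8, 17.6 and 1.57 CPM and at 66.2, 113 and 0.474 CPM, and Pagr1, a partner of the Trithorax methyltransferases, at 7.59, 10.04 and 0 CPM and at 4.49, 1.92 and 0 CPM. That list summed to 1450, 304 and 222 CPM and to 1110, 673 and 226 CPM, lower in the 3 libraries rich in hepatocyte transcripts. The order was not particular to it. The further Polycomb list summed to 2840, 1340 and 1200 CPM and to 2800, 2800 and 997 CPM, and 33.2% of all tested genes had that order with library totals.

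Classical Polycomb targets were low or uneven. Of the 37 Hox genes matched, 12, 7 and 5 had at least 3 counts in the physiological and 12, 6 and 5 in the pathological libraries, and 8 were tested, 3 positive and 5 negative. Hoxa4 stood at 0.263, 3.70 and 18.1 CPM and at 0.429, 0 and 0 CPM, and Hoxc8 at 0, 2.14 and 28.4 CPM and at 0.644, 0.0474 and 0 CPM. Replicate 3 of each pressure had the fewest Hox genes at 3 counts but the largest sums of the list, 68.9 and 130 CPM, while the other 4 libraries summed to between 6.85 and 41.8 CPM. Over the TMM-scaled total, the list summed to 140 CPM in pathological replicate 3. Of that, Hoxb7 gave 62.3 CPM, a gene picked after its values were seen. Cdkn2a, the cell cycle inhibitor locus that Cbx7 is known to repress, stood at 0.724, 0 and 0 CPM and at 0.751, 3.79 and 0 CPM, and Cdkn1a (p21) at 511, 307 and 385 CPM and at 638, 1156 and 198 CPM. The 6 tested Cdk inhibitors were 3 positive and 3 negative. Of 20 tested proliferation genes, 11 were positive and 9 negative, with 0 at an unadjusted p under 0.05. Cdk1, the mitotic kinase, stood at 2.90, 1.10 and 20.2 CPM and at 0.501, 0 and 0.853 CPM, and Bub1, a spindle checkpoint kinase, at 5.63, 0 and 0 CPM and at 2.54, 2.13 and 47.5 CPM.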

How the data were processed

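Each file holds 1 library, and its header names the values expected counts. The authors deposited these estimated counts per gene unnormalized, per the file headers. Per the submitters' processing notes, STAR, RSEM and limma were used, with no version. The sources used here do not name a build, an annotation or a strand setting, and reads of overlapping and antisense genes cannot be told apart.

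Counts were rounded and compared with edgeR 4.0.16 in R 4.3.3 (quasi-likelihood F-test, TMM, filterByExpr, no covariate), two-sided, with Benjamini-Hochberg adjustment over 12742 genes and a threshold of 0.05. CPM are deposited counts over TMM-scaled totals, and sums of marker lists use unscaled totals. Paralog ratios add 0.5 count to each gene and were compared by an exact permutation test. Gene lengths were not available in the tables used, so levels of different genes were not compared. The edgeR test was also run on simulated counts with a smaller spread between libraries than these data. Here the biological coefficient of variation, edgeR's measure of that spread, was 1.39. The simulated run therefore cannot show how the test performs at the spread of these libraries. All pairs of libraries differed by more than sampling noise (chi-square per degree of freedom 74.9 to 1100). Replicates are numbered in deposition order.

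The members and lists were chosen with earlier results of these data known. Values in every library are given for the Cbx, Pcgf, Ezh and RING genes, members whose groups do not overlap, and the 3 members with the smallest p in each direction, plus the 2 genes with the smallest p of the further Polycomb, demethylase and Trithorax, Cdk inhibitor, Hox and proliferation lists, but not of the cell type marker lists. 1 gene of the further Polycomb list is not reported here. Cholangiocyte marker sums ran from 5.71 to 92.8 CPM, lymphocyte sums from 0.0875 to 26.8 CPM, pan-endothelial sums from 857 to 3240 CPM and sinusoidal endothelial sums from 3970 to 9200 CPM. Ctsl, at 1949 to 3897 CPM, made up much of the sinusoidal sums of physiological replicate 1 and pathological replicates 1 and 2, and hid uneven genes. Stab2 stood at 8.09, 208 and 173 CPM and at 2.79, 15.3 and 204 CPM. Dnase1l3 stood at 12.5, 2289 and 1634 CPM and at 14.9, 63.6 and 2609 CPM. Gata4 of that list was more even, at 155 to 308 CPM. Alternatives were DESeq2 1.42.0, limma-voom (limma 3.58.1), other scaling and filters, other pseudocounts, a hepatocyte term and leaving out each library.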

Additional observations from a re-analysis of the deposited data

How the results depend on the processing

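No member was called under any of the alternatives, including those that leave out a library, and the number of genes called over the whole table was 0 in all but DESeq2 (1 gene) and the 3 libraries over 10000 CPM of hepatocyte genes alone (244 genes, with 2 physiological libraries and 1 pathological, and the spread taken from the physiological ones). That split and the one of the 3 libraries under that level were chosen after seeing the data. With library totals, 1 member in place of 4 had groups that did not overlap, beside 0.981% of all genes higher and 3.29% lower. The members' median log2 fold change was 0.32, ran from 0.06 to 0.87 with 1 library left out, and was -0.45 with a term for hepatocyte transcripts (median of all genes -0.24), 0.06 in the 3 libraries poor in them and -0.91 in the 3 rich in them (median of all genes -0.58). Of 30 members, 13 were positive and 17 negative with that term, and 18 and 12 with limma-voom, in place of 21 and 9. Signs were followed gene by gene only for the Cbx, Pcgf, Ezh and RING genes, Rbbp7, Jarid2, Rybp and Yaf2. Among these, the hepatocyte term turned Cbx7 to -0.41, Pcgf3 to -2.38 and Rnf2 to -0.86, and limma-voom turned Pcgf3 to -0.92. Other members, not listed here, also changed sign in both fits. With 1 library left out, log2 fold changes ran from -3.17 to 2.56 for Cbx7, -0.21 to 1.37 for Pcgf3, -0.041 to 7.57 for Pcgf6, -0.13 to 1.49 for Rnf2, -0.039 to 0.79 for Ezh1 and -1.38 to 0.17 for Ezh2. Differences in log2 ratio ran from -0.23 to 3.28 for Ezh1/Ezh2, -0.39 to 3.33 for Cbx7/Cbx6, -0.87 to 5.80 for Cbx7/Cbx8 and -0.17 to 3.18 for the accessory subunits of PRC2. In the 3 libraries poor in hepatocyte transcripts, with 1 physiological library, the differences were -1.26 for Ezh1/Ezh2, -0.87 for Cbx7/Cbx6, -3.87 for Cbx7/Cbx8, -1.08 for Ring1/Rnf2 and 0.19 for Rbbp4/Rbbp7. In the 3 rich in them, with 1 pathological library, the same differences were 6.045, 5.025, 11.45, 8.94 and -1.21. The cause of these changes was not tested. The groups share no number in the labels, which give 2, 11 and 22 to the physiological and 3, 9 and 23 to the pathological libraries. A replicate block that pairs neighbouring numbers, chosen after seeing the data and stated by no label, called 0 genes and 0 members. It gave a median of 0.07 with 15 members positive and 15 negative. Among the genes whose signs were followed, it turned Cbx7 to -1.08, Pcgf3 to -0.62 and Rnf2 to -0.18. Depth limits the low genes, where 1 count is worth 0.0329 to 0.143 CPM.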
